A study of Ctenopharyngodon idella with 2 samples.

Results

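Described here are 141 genes of the grass carp spleen that were abundant in both a high temperature and a normal temperature library and took nearly the same part of each. A gene belonged to the set when its count was among the 300 highest in both libraries and its ratio of CPM (the count scaled by the library total), high over normal temperature, lay from 0.8 to 1/0.8. The members were thus chosen by their measured counts in both libraries. The set held 141 of the 27929 gene IDs listed, and 141 of the 250 IDs that were in the top 300 of both libraries (56.4%). Of 19006 measured genes, those with a sum of 20 or more counts over both libraries, 36.8% lay in the same ratio window. The grass carp (Ctenopharyngodon idella) is a farmed freshwater cyprinid fish, and the study asked how its immune system responds to heat. Spleen RNA of a high temperature group and of a normal temperature group was sequenced, with 1 library each. The high temperature library held 20936717 gene counts and the normal temperature library 16658918. The temperatures, the length of exposure, the strain and age of the fish and the number of fish behind a library are not stated in the labels.

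The spleen of a bony fish filters blood, stores and clears red blood cells and is a main site of immune defence, so that its RNA comes from red cells, white cells and supporting tissue together. In vertebrate tissues a small number of genes usually supplies a large part of the messenger RNA. Genes of ribosomal proteins, translation factors, the cytoskeleton and, in organs rich in blood, haemoglobins are known for this. Genes with steady levels matter in heat studies because other genes are often scaled against them. The files list the genes by ID alone, and 0 of all 27929 IDs, the 141 included, were found in the RefSeq gene table of the grass carp. No member therefore has a name or a known role here, and the tissue label could not be checked against marker genes.

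The ratio was part of the rule that chose the genes, and with 1 library per treatment no difference or likeness has a replicate check and no p-value is given. The intervals below cover counting error only. Calling these genes stable therefore describes 2 libraries and was not tested for heat. In whole tissue, fewer cells of a type and less RNA per cell cannot be told apart.

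The 141 genes together supplied a large and nearly equal part of each library. They summed to 5345984 counts, or 25.5% of all counts, at high temperature (exact 95% interval 25.52% to 25.55%) and to 4186987 counts, or 25.1%, at normal temperature (25.11% to 25.15%). The joint share was thus 1.02 times as large at high temperature, a likeness that the rule brings about. The other abundant genes took shares that differed more between the libraries, also by the rule. The 74 genes above the window took 18.3% at high and 11.5% at normal temperature, and the 35 genes below it took 8.45% at high and 16.2% at normal temperature.

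**Figure D1:**
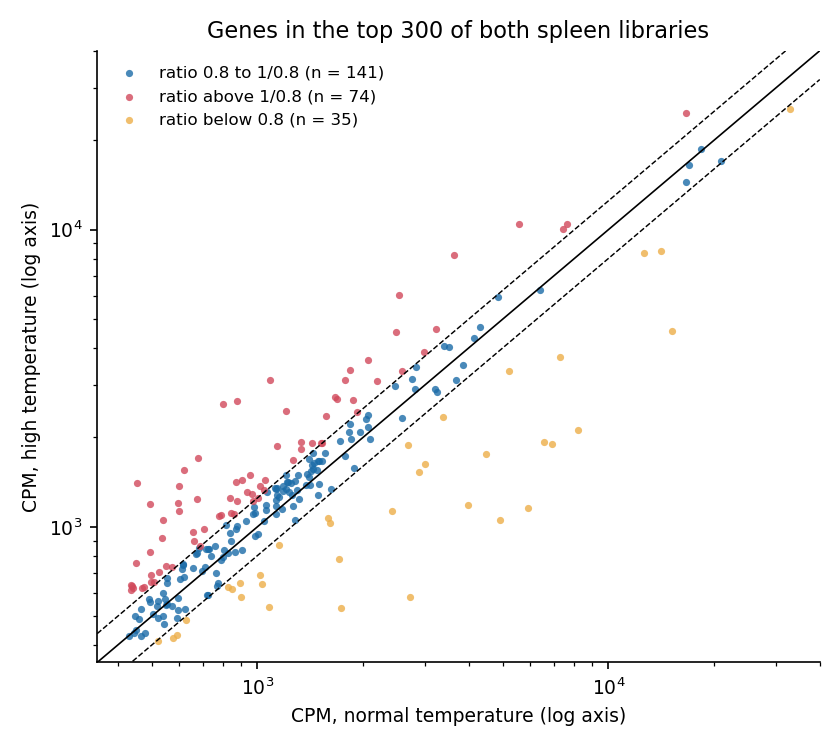
CPM at high temperature (vertical log axis) against CPM at normal temperature (horizontal log axis) for the 250 genes in the top 300 of both libraries; each point is 1 gene, the solid line marks equal CPM and the dashed lines mark ratios of 0.8 and 1/0.8. The 141 genes between the dashed lines run from 430 to 18624 CPM at high and from 431 to 20986 CPM at normal temperature.

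Within the set, a few genes carried much of the share. The first 4 by mean CPM took 6.66% of all counts at high and 7.29% at normal temperature, and the first 10 took 9.6% at high and 9.95% at normal temperature. The first 50 took 17.6% of the high temperature library and 17.7% of the normal temperature library. The remaining 91 genes took 7.89% at high and 7.43% at normal temperature. The joint CPM ratio was 0.913 in the first 4 and 1.06 in the last 91, and with the TMM scaling of edgeR both were below 1, at 0.815 and 0.948. Member levels ran from 430 to 18624 CPM at high temperature, with a median of 1172 CPM, and from 431 to 20986 CPM at normal temperature, with a median of 1127 CPM. The smallest member count was 9010 at high and 7187 at normal temperature, so that all 141 passed the minimum of 20 counts used for other genes.

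**Figure D2:**
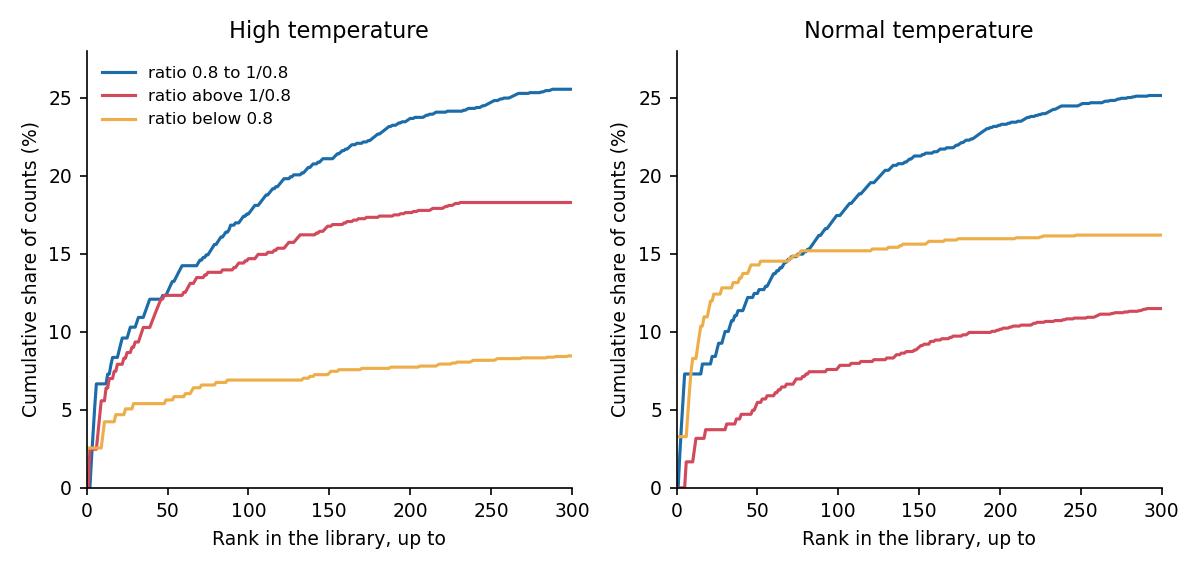
Cumulative share of all counts (vertical axis, percent) taken by abundant genes up to each rank of the library (horizontal axis), at high temperature on the left and normal temperature on the right; the lines are genes with a ratio of 0.8 to 1/0.8, above 1/0.8 and below 0.8. The line of the 141 genes ends at 25.5% at high and 25.1% at normal temperature, while the other lines change places between the panels.

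The first 3 members by mean CPM were each among the 5 most abundant genes of both libraries. CI01000300_10370185_10373703, on sequence CI01000300 from 10370185 to 10373703 by its ID, had 356925 counts (17048 CPM, rank 4) at high and 349603 counts (20986 CPM, rank 2) at normal temperature. This gene also had the highest mean level per length of the set, with 13154 FPKM at high and 16193 FPKM at normal temperature (FPKM, the count scaled by gene length and library total). Its CPM was the least even of all members in the downward direction, with a ratio of 0.812 (95% counting interval 0.809 to 0.816), and with TMM scaling its ratio of 0.725 lay outside the window. CI01000300_01373306_01377544, on the same sequence from 1373306 to 1377544, had 389924 counts (18624 CPM) at high and 305517 counts (18340 CPM) at normal temperature, rank 3 in both libraries. Its ratio of 1.016 (1.011 to 1.020) made it the most even of these 3 genes. CI01000004_04594923_04600816, on CI01000004 from 4594923 to 4600816, had 345191 counts (16487 CPM, rank 5) at high and 281916 counts (16923 CPM, rank 4) at normal temperature, a ratio of 0.974 (0.969 to 0.979).

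The order of the members was nearly kept. Spearman's rho between the counts of the 2 libraries was 0.978 over the 141 genes, which share a narrow ratio by the rule, so that the value is a description. In the ranking of all genes, 6 members held the same rank in both libraries and 70 moved by at most 10 ranks, with a median move of 11. At high temperature 76 members stood nearer the top and 59 stood further from it. The greatest moves were 26 ranks towards the top and 48 ranks away from it. Of the 10 most abundant genes, 4 were members in each library, and of the 100 most abundant, 49 were members at high and 48 at normal temperature.

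The demand for a top 300 rank in both libraries itself favours even ratios, so the part of the abundant genes inside the window is a description of the rule. Of the 250 genes in the top 300 of both libraries, 56.4% lay within the window, against 36.8% of the 19006 measured genes. Above the window lay 29.6% of the 250 and 39.7% of the 19006, and below it 14% and 23.5%. Of the 100 genes in the top 300 of 1 library only, 95 lay outside the window. Over all 350 genes in the top 300 of either library 146 (41.7%) lay within it, close to the 41.8% of 4802 genes with a minimum of 1000 counts. Entry through 1 library favours uneven ratios near the cutoff, so this likeness is a description too. Within the abundant genes, the share of members was lowest at the very top. A gene near the cutoff stays in the top 300 of both libraries only with a limited ratio. The rule thus sets the order of the bands in part. The share of members was 38% among the first 50 of the 250 by mean CPM, where 15 lay above the window and 16 below it. It was 64%, 58%, 58% and 64% in the following bands of 50 genes. Over all 250 genes, 74 lay above the window and 35 below it with library totals, but 42 above and 51 below with TMM scaling, which places all ratios 0.16 lower on the log2 scale, so that no side prevailed under both.

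**Figure D3:**
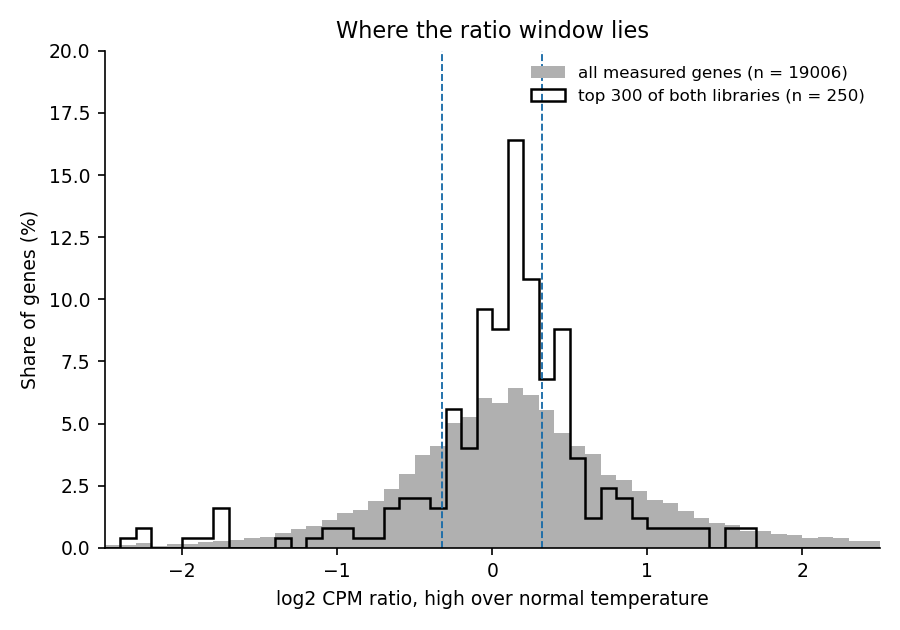
Share of genes (vertical axis, percent) by log2 CPM ratio, high over normal temperature (horizontal axis, bins of 0.1), for all measured genes (grey, 561 of 19006 beyond the axis or with a count of 0 not drawn) and for the 250 genes in the top 300 of both libraries (black line); the dashed lines mark the window edges at -0.32 and 0.32. Between the dashed lines lie 56.4% of the 250 genes and 36.8% of all measured genes, a contrast that the demand for a high rank in both libraries favours.

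The members were not equal between the libraries in the strict sense. The ratio was above 1 in 93 members and below 1 in 48, with a median of 1.08 and quartiles of 0.974 and 1.14. At these depths the counting interval of a ratio is narrow, and it included 1 in only 13 of the 141 genes. It lay wholly above 1 in 89 and wholly below 1 in 39. These counts hold for library totals and follow from the depth. No like count over other genes is given, so they are not read as a trait of the set. The median was 1.11 over all measured genes and 1.12 over the 250 abundant genes, whose ratios the window does not cut. Over the measured genes within the window that were not members it was 1.01. The rule bounds the members' median, so its place among these values is a description. Scaled with TMM factors, the split turned round, with 52 members above 1 and 89 below, a median of 0.962 and a median of 0.995 over all measured genes. With TMM scaling 16 members fell below the window, among them the genes described here with CPM ratios of 0.812, 0.828, 0.848 and 0.865, whose TMM ratios were 0.725, 0.740, 0.757 and 0.773. A lean of the set upward or downward thus depends on the scaling and is not reported as a direction.

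The edges of the window cut through a continuous range. Just inside the lower edge lay the gene with ratio 0.812 described above, and just outside it CI01000034_03432846_03437608, with 8661 counts (414 CPM) at high and 8694 counts (522 CPM) at normal temperature, a ratio of 0.793. Next outside, at 0.778, lay the most abundant gene of both libraries, CI01000092_03860647_03862519, with 534506 counts at high and 546471 at normal temperature. Just inside the upper edge lay CI01000075_00015676_00016381, with 21291 counts (1017 CPM) at high and 13560 counts (814 CPM) at normal temperature, a ratio of 1.249. Just outside it lay CI01000158_01881044_01882873, with 26296 counts (1256 CPM) at high and 16723 counts (1004 CPM) at normal temperature, a ratio of 1.251. The counting intervals of 6 members crossed the upper edge and that of 1 crossed the lower edge.

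Many members had a short counted length. These lengths, which the rule did not use, were recovered as whole numbers from the counts and the authors' FPKM. Whether they cover only the coding part of a gene is not stated, so they need not be lengths of whole transcripts. Of the members' lengths 82.3% were divisible by 3, against 82.4% for abundant genes above the window and 88.6% for those below it. Among the 18311 measured genes with a precise length it was 76%. The median member had 774 bases (quartiles 464 and 1521), against 1112 bases (686 and 1492) in the 74 abundant genes above the window, 1047 bases (432 and 2217) in the 35 below it and 1164 bases (672 and 1914) in all measured genes. Of the members, 54 (38.3%) had at most 600 bases, against 15 (20.3%) of those above the window, 14 (40%) of those below it and 20.9% of all measured genes. The share of short genes among members was thus close to that below the window, while the share above the window was close to that of all measured genes. With TMM scaling, which moves the window over the genes, these shares were 37.6% of 157 within, 16.7% of 42 above and 33.3% of 51 below. The 4549 less abundant genes with at least 1000 counts and a precise length had a median of 1518 bases, and 12.2% of them had at most 600. Genes are not replicates of a treatment, so these shares carry no test.

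Length varied with abundance inside the set. Among the first 50 of the 250 genes the members' median length was 1329 bases, in the next 3 bands it was 738, 660 and 462 bases, and in the last it was 1185 bases. The other genes of the same bands had medians of 1032, 1308, 1068, 1047 and 1237 bases, so that the members were the shorter in every band but the first. Since a count grows with length, a short gene needs more RNA molecules than a long one to enter the top 300. The 54 members of at most 600 bases had a median level per length of 2856 FPKM at high and 2562 FPKM at normal temperature. The 37 members of over 1500 bases had 354 FPKM at high and 364 FPKM at normal temperature. Ranked by FPKM, 116 of the 141 were still in the top 300 of both libraries, with a median length of 634 bases, and the 25 that were not had a median of 2607 bases.

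The ratio itself showed little relation to length within the set. The median ratio was 1.08 for members of at most 600 bases, 1.08 for the 50 members of over 600 and up to 1500 bases and 1.06 for longer ones. Spearman's rho between length and ratio was -0.0782 over the 141 members and 0.0583 over all 250 abundant genes, values across genes that share both libraries, and the first of them is bounded by the rule. The joint share of the short members was 6.98% at high and 6.55% at normal temperature. That of the middle class was 11.5% at high and 11.7% at normal temperature, and that of the long members was 7.04% at high and 6.9% at normal temperature.

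The shortest member was CI01000029_08759743_08761002, on CI01000029 from 8759743 to 8761002, with 183 counted bases. It had 17187 counts at high and 14374 at normal temperature, a level of 4486 FPKM at high and 4715 FPKM at normal temperature. The longest was CI01000060_00057848_00094445, on CI01000060 from 57848 to 94445, with 13959 bases, 10286 counts at high and 7688 at normal temperature. Its level per length was 35.2 FPKM at high and 33.1 FPKM at normal temperature, the lowest of the set in both libraries. Both genes lay close to equal CPM, with ratios of 0.951 (0.930 to 0.973) for the shortest and 1.065 (1.033 to 1.097) for the longest.

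The members' genomic spans ran from 375 to 48996 bases. The span is the distance between the position fields of an ID, which are read here as the gene's start and end. Its median was 3990 bases in the members (quartiles 1729 and 7095), against 3792 bases in the abundant genes above the window, 3036 bases in those below it and 6554 bases in all measured genes with a position. Median spans of abundant genes inside and outside the window thus lay below that of all measured genes. Quartiles were 2592 and 8094 bases above the window and 986 and 10492 bases below it. With TMM scaling the medians were 3786 bases within, 4698 above and 4595 below, so the order of the 3 classes depended on the scaling. Spans under 2 kb were found for 41 members (29.1%), against 16.2% of genes above the window, 40% of genes below it and 18.9% of all measured genes. Spans of 10 kb or more were found for 26 members (18.4%), against 18.9%, 25.7% and 36.1% of the same 3 sets. No member spanned 50 kb, against 2 of the 74 genes above the window, 0 of the 35 below it and 3.38% of all measured genes.

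**Figure D4:**
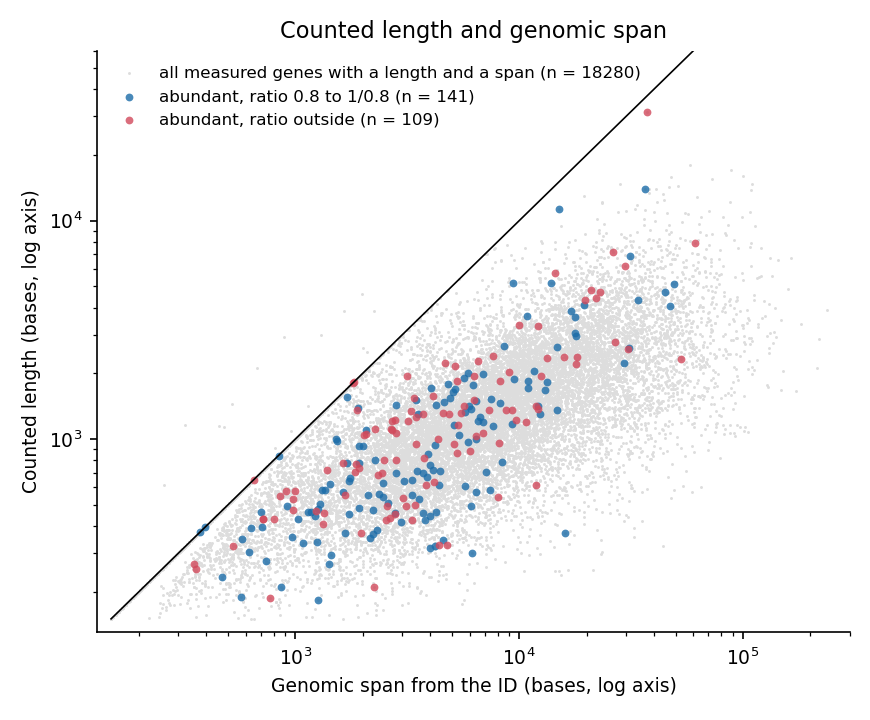
Counted length (vertical log axis, bases) against genomic span (horizontal log axis, bases) for 141 abundant genes with a ratio of 0.8 to 1/0.8, 109 abundant genes with a ratio outside and 18280 measured genes with both values; the line marks a length equal to the span. The members reach from spans of 375 bases to 48996 bases with a median of 3990 bases, against 6554 bases in all measured genes.

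Counted bases filled a median of 22.3% of a member's span, against 24.1% in genes above the window, 37.8% in those below it and 19.4% in all measured genes. The highest value was 100% in the members but 363% in all measured genes. For some measured genes the reading of the position fields or the recovered length thus does not hold. The length equalled the span in 3 members (2.13%), which is the pattern of a gene counted without introns, against 2.4% of all 250 abundant genes, 2.53% of less abundant genes with at least 1000 counts and 6.26% of all measured genes. The widest of the 3 was CI01000347_00576004_00576843, on CI01000347 from 576004 to 576843, with 840 bases. It had 11082 counts at high and 7748 at normal temperature, a CPM ratio of 1.138 (1.105 to 1.172). The others had 396 bases, with 12339 counts at high and 12072 at normal temperature, and 375 bases, with 9177 counts at high and 7444 at normal temperature. The last of these held rank 284 in both libraries. At the other end stood CI01000054_02951289_02967370, with 372 counted bases in a span of 16082 bases, or 2.31%. The longest span belonged to CI01000016_06998707_07047702, on CI01000016 from 6998707 to 7047702, with 48996 bases of which 5118 were counted. It had 65179 counts (rank 32) at high and 61146 counts (rank 30) at normal temperature, a ratio of 0.848 (0.839 to 0.858).

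The span classes differed in number and in their joint share of counts. The 26 members of 10 kb or more took 3.49% of all counts at high and 3.4% at normal temperature, whereas the 41 members under 2 kb took 6.84% at high and 6.77% at normal temperature. Within the compact class, the gene from 1384469 to 1386368 on CI01000300 alone took 1.44% of all counts at high and 1.67% at normal temperature. Without it the compact class took 5.4% of all counts at high and 5.1% at normal temperature. The median member of the wide class had 1143 CPM at high and 1136 CPM at normal temperature, and that of the compact class 981 CPM at high and 903 CPM at normal temperature. The 74 members between these classes took 15.2% at high and 15% at normal temperature. Median levels per length were 329 FPKM at high and 328 FPKM at normal temperature in the widest class, and 2701 FPKM at high and 2488 FPKM at normal temperature in the most compact. Median lengths were 3018 bases in the widest and 462 bases in the most compact class. All members were chosen by count and FPKM divides the count by length, so this contrast in FPKM largely restates that in length. Median CPM ratios were 1.06, 1.09 and 1.05 in the wide, middle and compact classes. Length and span went together over the members, with a Spearman's rho of 0.761, and over all measured genes with both values, with 0.733.

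The members were spread over 71 sequences of the assembly, 41 of which held 1 member each. CI01000300 held the most, with 7 of its 228 measured genes, and these 7 took 5.89% of all counts at high and 6.45% at normal temperature. Members were directly adjacent to each other, with no measured gene between them, in 4 pairs. Of the members' 265 nearest measured neighbours 8 were thus members, against 141 of all 19006 measured genes. Neighbours of the same class were 6 of 145 for the 74 abundant genes above the window. They were 6 of 64 for the 35 genes below it, so adjacency is not particular to members. Within gaps of less than 40 kb, 14 members formed 6 stretches of 2 or 3 members. No like count for other genes is given, so this number is a description. The most abundant stretch covered 15355 bases of CI01000300, from 1373306 to 1388660, and held the rank 3 gene described above and 2 further members. The gene from 1384469 to 1386368, with 1386 counted bases, had 302305 counts at high and 277945 at normal temperature, a ratio of 0.865 (0.861 to 0.870). The gene from 1387744 to 1388660, with 495 counted bases, had 60859 counts at high and 53519 at normal temperature, a ratio of 0.905 (0.894 to 0.915), and held rank 38 in both libraries. The intervals of the 3 ratios did not overlap, but they cover counting error only and are narrow at such counts. Whether the 3 genes differ in evenness was thus not tested. With TMM scaling the ratios were 0.907, 0.773 and 0.808, the second of them below the window.

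A second stretch of 3 members covered 79301 bases of CI01000072, from 4635652 to 4714952, and its genes were long. The gene from 4635652 to 4646429, of 3654 counted bases, had 98570 counts at high and 71750 at normal temperature, a ratio of 1.093. The gene from 4648326 to 4662198, of 5154 bases, had 28140 counts at high and 27032 at normal temperature, a ratio of 0.828. The gene from 4683704 to 4714952, of 6882 bases, had 18839 counts at high and 14030 at normal temperature, a ratio of 1.068. With TMM scaling the 3 ratios were 0.976, 0.740 and 0.954. The side of 1 of the first and the last gene thus depended on the scaling, while the middle gene lay below 1 under both. On CI01000027, the adjacent members from 5074328 to 5075547 and from 5082223 to 5082843 had unlike ratios of 1.230 (1.219 to 1.241) and 0.929 (0.909 to 0.949). Whether members of a stretch are near-identical copies that share reads is not known here, so single values within a stretch are uncertain.

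The genes next to the members, with members themselves left out, had ratios divided in shares close to those of all genes. Of 265 neighbours, 8 were members and were left out. These lie within the window by the rule, so leaving them out lowers the share within it. For the other classes, neighbours of the same class were likewise left out, 6 of 145 above the window and 6 of 64 below it. The 141 members had 257 other measured genes as nearest neighbours on either side, with a median of 600 counts over both libraries. Of these neighbours, 37.7% lay within the window, 39.7% above it and 22.6% below it, against 36.8%, 39.7% and 23.5% of all measured genes. Their median ratio was 1.12, against 1.11. For the 122 neighbours less than 5 kb away, 40.2% lay within the window. The same held for 43.1% of 58 such neighbours of abundant genes above the window and 28.6% of 21 of those below it. With members left out, 4 of the 257 neighbours were in the top 300 of both libraries. Among all 19006 measured genes, 109 were in it and were not members. The 139 neighbours of abundant genes above the window had 36% within it and 43.9% above it. The 58 neighbours of abundant genes below the window had 34.5% within it and 41.4% below it. With TMM scaling 36.3% of 292 neighbours of genes within the window lay within it, against 37.1% of all measured genes. Of 80 neighbours of genes above it 36.2% lay above it, against 31.4% of all measured genes. Of 87 neighbours of genes below it 39.1% lay below it, against 31.5%, a smaller contrast than with library totals.

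**Figure D5:**
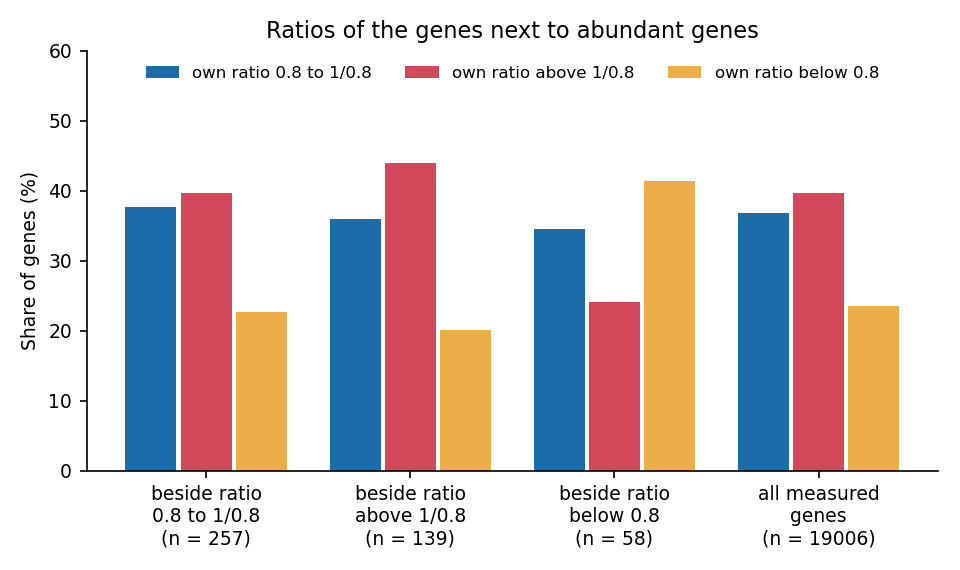
Share of genes (bars, percent) whose own CPM ratio, high over normal temperature, lay within 0.8 to 1/0.8, above 1/0.8 or below 0.8, for the nearest measured neighbours of abundant genes of each ratio class and for all measured genes. Neighbours of the same class are left out. The other neighbours of the 141 genes divide in shares close to those of all measured genes, with 37.7% against 36.8% within the window.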

How the data were processed

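Per the labels' protocols, Trizol was used to harvest spleen RNA of 1 high temperature and 1 normal temperature group, and the Illumina library method was standard. The submitters' processing notes list CASAVA 1.7 and HISAT. The counting tool, genome build, annotation and strand setting are not stated there or in the labels. Whole-number counts per gene ID and FPKM values were deposited by the authors. For all 141 members each deposited FPKM equalled the count over a whole-number length and the library total, within 0.0001, so lengths were taken from both tables (error at most 0.2 bases) and the FPKM are no second measurement.

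CPM used library totals. Ratio intervals are exact Clopper-Pearson 95% intervals of the high temperature part of a gene's counts, and shares have exact binomial intervals. Both cover counting error only, and reads that carry no molecular identifiers are not independent molecules. With 1 library per group, no quasi-likelihood fit was made. TMM factors came from edgeR 4.0.16 and size factors from DESeq2 1.42.0 (R 4.3.3), the rest from Python 3.11.15 with numpy 2.4.6, scipy 1.17.1, pandas 2.3.3 and matplotlib 3.10.9. The rule and intervals were tested on simulated counts that varied by counting error only, so spread beyond counting error was not tested.

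The members and lists were chosen with earlier results of these data known. Named IDs are the 3 members with the highest mean CPM, the highest mean FPKM, the shortest, longest and widest member, the widest whose length equals its span, the IDs on each side of each window edge, and adjacent members by position. Other IDs were named after their values were seen. Marker genes foreseen for matched names could not be applied.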

Additional observations from a re-analysis of the deposited data

How the results depend on the processing

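Each rule was varied in turn. The number of members was 157 with TMM factors and 159 with DESeq2 size factors, of which 125 and 124 were among the 141. The other settings gave 101 to 210 members, except that a window of 0.9 to 1/0.9 left 69. The joint shares of the set moved with its membership in every setting tried. Counting error of 1 gene set is no measure for another set, so these moves carry no test. Every share is a part of all unscaled counts of a library, and the scalings changed only which genes lay in the window. High temperature before normal temperature, the shares were 26.9% and 24.1% for genes chosen with TMM factors. For genes chosen with DESeq2 size factors they were 27% and 24%. For genes chosen with totals that leave out the 10 most abundant genes they were 24.9% and 23.8%. They were 23.2% and 22.8% with the 200 highest counts, 27.6% and 27.2% with the 500 highest, 12.4% and 12.3% with the window of 0.9 to 1/0.9, and 39.8% and 37.6% with a window of 1/1.5 to 1.5. They were 24.8% and 24.5% for genes with the whole counting interval inside the window, and 24.2% and 23.9% when genes were ranked by FPKM. Ranking by FPKM, which divides by length, also lowered the median length to 570 bases and the median span to 2588 bases. The other settings gave medians of 696 to 928 bases in length and 3726 to 4740 bases in span. The share of all measured genes within the window was 31.7% among genes with at least 1 count in each library and 41.8% with a minimum of 1000 counts. No paired analysis was possible because 1 library stands for each treatment, and no library could be left out.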

Other observations

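A few genes had even ratios but reached the top 300 in 1 library only. Of the 50 genes in the top 300 at high but not at normal temperature, 2 lay within the window, and of the 50 in the top 300 at normal but not at high temperature, 3 did. The lowest count in the top 300 was 8613 at high and 6828 at normal temperature.

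The 6 stretches of members held 5 other measured genes, looked at after their values were seen. One, on CI01000300 from 1381458 to 1383409, lay between the members with 389924 and 302305 high temperature counts. It was sparse, with 905 counts at high and 121 at normal temperature, and its CPM ratio was 5.951 (95% counting interval 4.918 to 7.255). Another, on CI01000072 from 4665875 to 4678048, had 8613 counts at high and 5479 at normal temperature, a ratio of 1.251 (1.209 to 1.294), and had the lowest count of the top 300 at high temperature. Sharing of reads with the abundant neighbours was not tested.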
